A study of Mus musculus with 6 samples.

Results

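Red blood cell transcripts in mouse liver RNA were represented by 7 genes: the adult alpha globins Hba-a1 and Hba-a2, the adult beta globins Hbb-bs and Hbb-bt, the erythroid heme enzyme Alas2, the anion exchanger Slc4a1 and the alpha globin chaperone Ahsp. They were chosen with the comparison of OP and HFCF livers already known, so their differences between these groups are given as a description. Calls from the fit over all genes are counted for them below, but support nothing about them. Of the 7 symbols, 6 were matched to rows of the deposited count table of 55401 genes, each to a single row. Ahsp was not analysed here. The rows were ENSMUSG00000069919 (Hba-a1), ENSMUSG00000069917 (Hba-a2), ENSMUSG00000052305 (Hbb-bs), ENSMUSG00000073940 (Hbb-bt), ENSMUSG00000025270 (Alas2) and ENSMUSG00000006574 (Slc4a1).

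The series sequenced poly(A) RNA from fresh liver tissue of C57BL/6 mice, in 2 groups of 3 libraries. The HFCF livers came from mice on a diet rich in fat, cholesterol and fructose, used to model metabolic-associated fatty liver disease. The OP livers came from mice treated with OP, okra polysaccharide in the title of the series, with no diet, dose or duration named in the labels of these samples. The labels give no age or sex, name no perfusion or rinsing of the liver, and do not say whether the libraries of a group came from separate animals, so the p-values below reflect no more than how these samples spread, some of which can be technical.

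Hemoglobin is a tetramer of alpha and beta globin chains, each holding a heme group, and it fills the red cell. Mouse red cells lose their nucleus before they circulate, but young ones, the reticulocytes, still hold globin mRNA, so any tissue that contains blood yields globin reads. In the adult mouse red cells are made in bone marrow and spleen, while hepatocytes make the plasma proteins haptoglobin and hemopexin, which bind free hemoglobin and heme, and liver macrophages take up aged red cells.

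Each chain type is encoded by a pair of near-identical gene copies, which bears on how far the reads of a copy can be told from those of its partner. The 2 alpha genes had a coding sequence of 429 bases with 1 difference between them, written C381T from Hba-a1 to Hba-a2, and the 2 beta genes had a coding sequence of 444 bases with 1 difference, C417T from Hbb-bs to Hbb-bt. Positions are counted from 1 at the A of the start codon. The coding stretches around these differences are shown from GENCODE M21 transcripts, which belong to the build GRCm38, with the differing base in capitals. They span coding positions 351 to 411 of the alpha genes and 381 to 441 of the beta genes:
Hba-a1: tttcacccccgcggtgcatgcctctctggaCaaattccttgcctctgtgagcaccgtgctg
Hba-a2: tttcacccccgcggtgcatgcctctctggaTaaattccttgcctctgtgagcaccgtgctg
Hbb-bs: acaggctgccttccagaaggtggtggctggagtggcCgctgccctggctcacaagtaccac
Hbb-bt: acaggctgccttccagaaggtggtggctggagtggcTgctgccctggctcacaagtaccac

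Outside these positions the coding sequences of a pair gave the same reads. Of the possible 150-base stretches of a coding sequence, 150 bases being the read length in the labels' protocol, 82.5% of the alpha and 90.5% of the beta stretches were identical in the partner. Over whole transcripts, which hold the more divergent untranslated ends, 48.4% of Hba-a1, 65.7% of Hba-a2, 58.7% of Hbb-bs and 50.7% of Hbb-bt stretches were identical in the partner. The sources used here do not say how the counting treated such reads, so values of single copies are uncertain and sums per chain type are given beside them.

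The 4 globin genes also differed together between the groups, and the 150 bases upstream of their transcript starts are shown for that reason, from the promoter sequences of RefSeq on GRCm38.p6. Of the 6 genes found, 5 were matched in that table. The search covered, on both strands, the letters GATAA that GATA factors bind, the box CACCC of Klf1 and related factors, the CCAAT box and the TATA box letters TATAA, and matches are in capitals. Hba-a1 lies at chr11:32283522-32283671 on the plus strand, Hbb-bs at chr7:103827929-103828078 and Hbb-bt at chr7:103813924-103814073 on the minus strand, and Alas2 at chrX:150547267-150547416 on the plus strand:
Hba-a1: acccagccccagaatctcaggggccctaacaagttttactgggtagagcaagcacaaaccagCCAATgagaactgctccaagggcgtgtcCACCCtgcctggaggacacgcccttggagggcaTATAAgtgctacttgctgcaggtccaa
Hbb-bs: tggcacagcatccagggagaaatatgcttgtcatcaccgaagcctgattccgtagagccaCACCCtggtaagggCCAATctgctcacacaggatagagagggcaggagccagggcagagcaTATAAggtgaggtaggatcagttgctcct
Hbb-bt: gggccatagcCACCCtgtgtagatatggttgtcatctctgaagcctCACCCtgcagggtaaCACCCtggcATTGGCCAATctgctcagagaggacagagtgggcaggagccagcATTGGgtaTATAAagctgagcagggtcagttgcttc
Alas2: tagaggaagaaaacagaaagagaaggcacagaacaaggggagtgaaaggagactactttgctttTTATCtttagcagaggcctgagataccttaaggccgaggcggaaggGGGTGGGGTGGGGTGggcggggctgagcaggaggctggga

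The upstream sequence of Hba-a2, at chr11:32296342-32296491 on the plus strand, was identical to that of Hba-a1 over the 297 bases of the RefSeq windows that could be aligned, with an offset of 3 bases. Hba-a1 and Hbb-bs each held 1 CACCC box, 1 CCAAT box and 1 match to TATAA, the last starting 27 bases before the transcript start in Hba-a1 and 29 bases before it in Hbb-bs. Hbb-bt held 3 CACCC boxes, 3 CCAAT boxes on either strand, 2 of which adjoin, and 1 match to TATAA. Alas2, the sole gene of the 5 without a CCAAT or TATA box match in this window, held 1 GATAA on the opposite strand and 3 adjoining CACCC boxes, also on the opposite strand. Among the 32851 promoters of the table, windows of the same length held GATAA in 13.3% of cases, the box CACCC in 37.4% of cases, the CCAAT box in 24.5% of cases and the letters TATAA in 14.2% of cases, and a match describes these letters, not a bound factor.

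Levels are given as CPM, counts scaled to a common library size after TMM normalization. Globin mRNA was lower in each of the 3 OP livers than in any HFCF liver. The 4 adult globin genes summed to 1254, 1719 and 887 CPM in HFCF replicates 1 to 3 and to 132, 344 and 164 CPM in OP replicates 1 to 3. The group means were 1287 ± 417 CPM in HFCF (SD, n = 3) and 213 ± 114 CPM in OP (SD, n = 3), a ratio of 6.03 and a difference of means of -2.59 on the log2 scale. HFCF replicate 2 was the highest library and OP replicate 1 the lowest, and OP replicate 2, the highest of its group, was 2.61 times the lowest OP library. As a share of all counts the globins made up 0.129% ± 0.0445 in HFCF and 0.0215% ± 0.0121 in OP (SD, n = 3 each). In RNA from whole tissue, fewer red cells and less mRNA per red cell cannot be told apart.

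**Figure D1:**
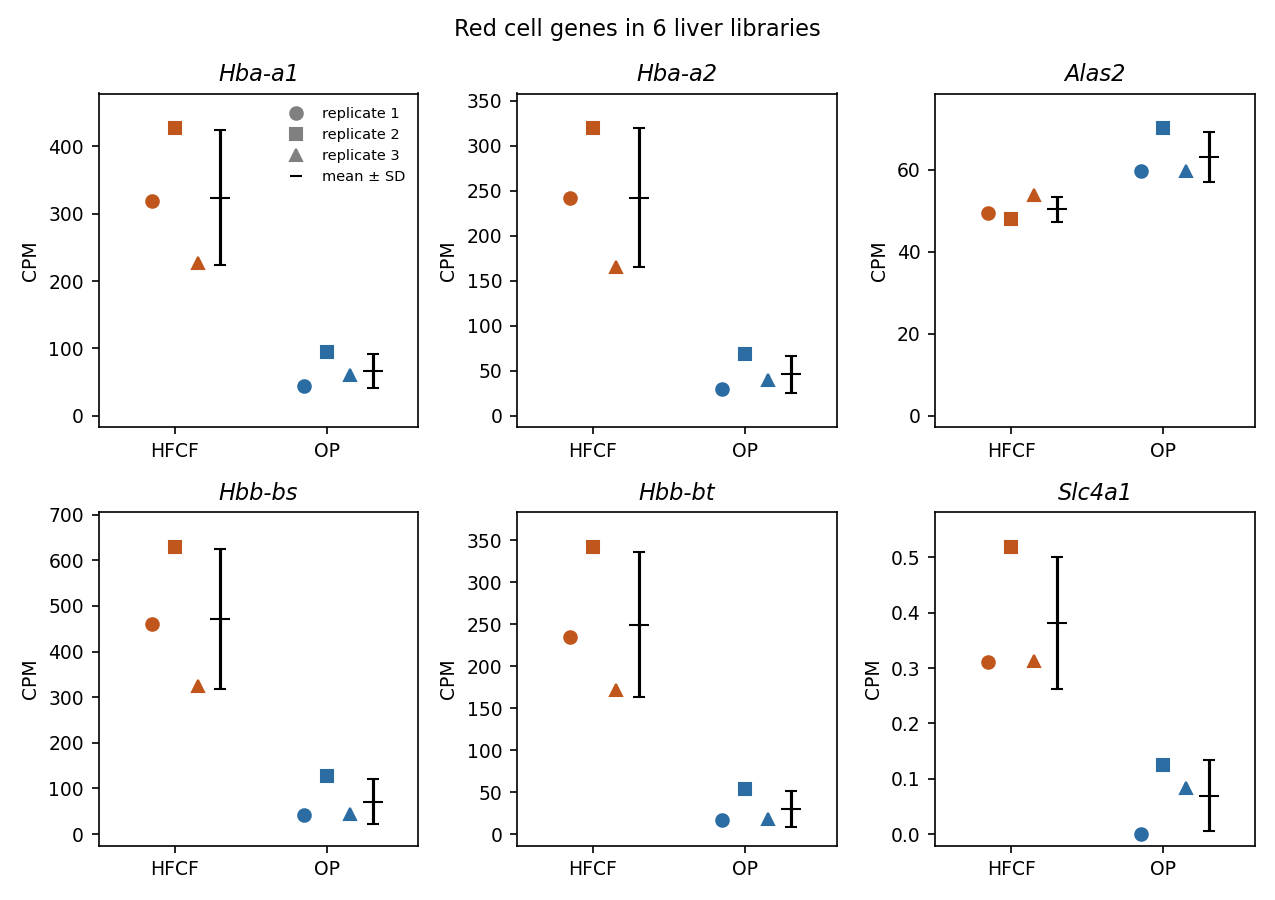
Level of each of the 6 genes in each library (y axis, CPM, from 0; symbols mark the replicate number, orange HFCF and blue OP), with the mean and SD of the 3 libraries of a group beside them. The 4 globins and Slc4a1 lie lower in each OP library than in any HFCF library, while Alas2 lies slightly higher.

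Of the alpha globins, Hba-a1 was measured at 318, 427 and 227 CPM in the HFCF livers and at 43.8, 94.2 and 61.1 CPM in the OP livers. The groups do not overlap, and the fitted log2 fold change of Hba-a1 was -2.29 (SE 0.324), 4.88 times lower in OP. Hba-a2 was measured at 242, 320 and 165 CPM in HFCF and at 29.7, 68.9 and 39.1 CPM in OP, with a log2 fold change of -2.40 (SE 0.352), 5.28 times lower in OP. The libraries stood in the same order for both alpha copies, from HFCF replicate 2 at the top to OP replicate 1 at the bottom.

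Of the beta globins, Hbb-bs was measured at 460, 630 and 324 CPM in HFCF and at 42.1, 127 and 45.2 CPM in OP, with a log2 fold change of -2.72 (SE 0.460), 6.59 times lower in OP. Hbb-bt was measured at 235, 343 and 172 CPM in HFCF and at 16.5, 54.0 and 18.6 CPM in OP. Its log2 fold change of -3.07 (SE 0.488), 8.39 times lower in OP, was the largest of the 6 genes, and its groups do not overlap either. For both beta copies OP replicate 2 stood well above the other OP libraries and OP replicates 1 and 3 lay close together.

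The remaining members did not share one pattern. Alas2 encodes the erythroid form of the enzyme that starts heme synthesis. It was measured at 49.4, 47.9 and 53.8 CPM in HFCF and at 59.5, 70.1 and 59.7 CPM in OP, with a log2 fold change of 0.33 (SE 0.136). Each OP liver was thus slightly above each HFCF liver, the opposite side to the globins. In the GENCODE M21 annotation Alas2 shares 311 exon bases with Apex2, a DNA repair gene on the opposite strand, which held 459, 444 and 584 counts in HFCF and 779, 567 and 708 in OP. Alas2 held between 2302 and 4460 counts, and the sources used here do not say whether the counting used strand, so reads of the shared bases cannot be told apart.

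Slc4a1 encodes band 3, the anion exchanger of the red cell membrane. It had 15, 25 and 19 counts in the HFCF livers and 0, 8 and 4 in the OP livers, or 0.381 ± 0.120 and 0.0697 ± 0.0640 CPM (SD, n = 3 each). The groups do not overlap, but OP replicate 1 was at 0, which allows a level of up to 0.05 CPM (3 counts, counting error only), and the fitted log2 fold change of -2.41 had an SE of 1.02. Such counts are near the floor of 0.0472 to 0.0625 CPM that 3 counts set in the 6 libraries.

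All 6 genes passed the filter on low counts, and in the quasi-likelihood test of edgeR, with p-values adjusted after Benjamini and Hochberg over 17394 genes, the 4 globins had an adjusted p under 0.05 and a lower level in OP, which is given only to set beside the background. Of all genes tested, 3.47% were called lower in OP and 15.4% had groups that do not overlap with OP lower, against 5 of the 6 members; since the genes were chosen on this contrast, the counts describe the choice. The 4 globin calls were absent when the share of counts in mitochondrially encoded mRNAs entered the model, with 0 members called, although the 4 log2 fold changes lay between -3.68 and -2.24 there. That share was 22%, 18.8% and 14.1% in the HFCF livers and 7.48%, 6.08% and 14.4% in the OP livers, and its part in the result was not tested. The calls were also lost without HFCF replicate 1 or HFCF replicate 2 (0 called), and without OP replicate 1 only 1 remained.

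Per kilobase of exon, which allows levels of different genes to be compared, Hbb-bs led in HFCF with 613 ± 200 CPM per kilobase, followed by Hba-a1 with 399 ± 124, Hba-a2 with 363 ± 116 and Hbb-bt with 355 ± 123.0 (SD, n = 3 each). The last 3 lay within their spread of each other. In OP the levels per kilobase were 93.1 ± 62.8 for Hbb-bs, 81.7 ± 31.5 for Hba-a1, 68.8 ± 30.7 for Hba-a2 and 42.3 ± 30.0 for Hbb-bt, with all neighbours in this order within their spread. Alas2 had 20.9 ± 1.28 CPM per kilobase in HFCF and 26.3 ± 2.53 in OP, and Slc4a1 had 0.0780 and 0.0142.

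The 4 globins moved together over the libraries. Pearson's r of log2(CPM + 0.5) between any 2 of them was between 0.990 and 0.9995 over the 6 libraries, a description in which reads that copies share and the difference between the groups both take part. The ratio between the groups was larger for the beta than for the alpha genes. Summed alpha globins were 566 ± 178 CPM in HFCF and 112 ± 46 in OP, a ratio of 5.05, and summed beta globins 721 ± 240 and 101 ± 69.3 CPM, a ratio of 7.12 (SD, n = 3 each).

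The make-up of the globin counts therefore differed between the groups as well. Alpha counts per beta count were 0.807, 0.768 and 0.792 in HFCF and 1.25, 0.90 and 1.57 in OP. The HFCF values spanned 0.768 to 0.807 around a mean of 0.789 ± 0.0194, and the OP values spanned a wider range around 1.24 ± 0.335 (SD, n = 3 each), without overlap. As a share of globin counts, alpha made up 43.4% to 44.7% in HFCF and 47.4%, 55.6% and 61.1% in OP replicates 2, 1 and 3, with 95% Wilson intervals of 46.7% to 48.0%, 54.5% to 56.7% and 60.0% to 62.2%, which cover counting error only.

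Within the beta pair, Hbb-bt held 33.8%, 35.2% and 34.6% of the beta counts in HFCF and 28.2%, 29.8% and 29.2% in OP. The means were 34.5% ± 0.723 and 29.1% ± 0.830 (SD, n = 3 each), without overlap. Within the alpha pair, Hba-a2 held 43.2%, 42.8% and 42.1% of the alpha counts in HFCF and 40.4%, 42.2% and 39.0% in OP, where OP replicate 2 overlaps the HFCF range. These shares rest on 3065 to 46778 beta counts and 4410 to 35936 alpha counts per library, and on the unknown treatment of shared reads.

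**Figure D2:**
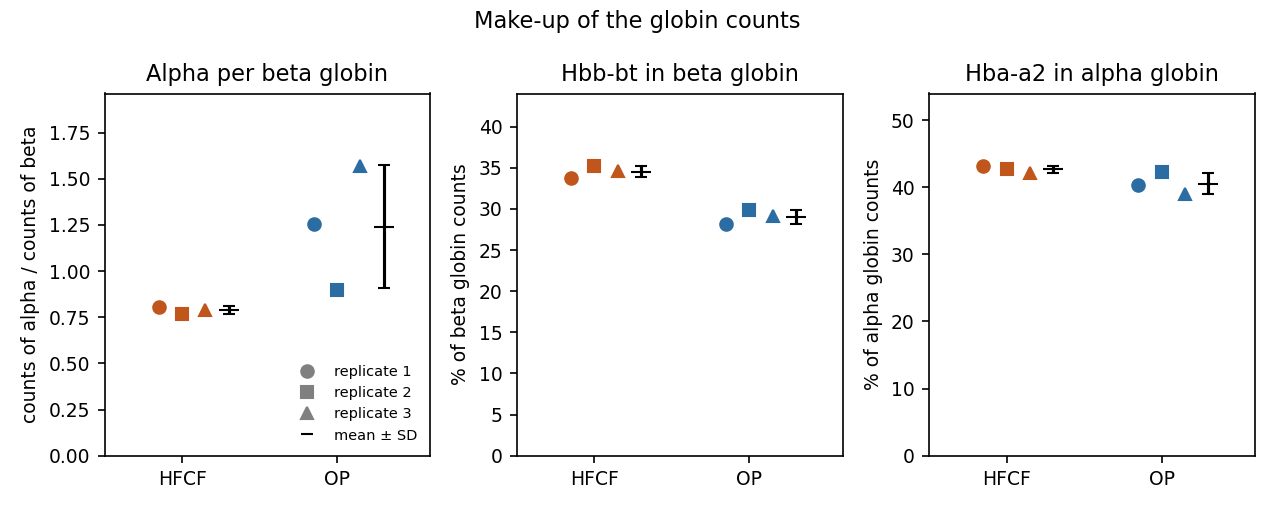
Make-up of the globin counts in each library (y axes from 0; symbols mark the replicate number, orange HFCF and blue OP; bars are mean and SD of 3 libraries). The 3 HFCF libraries lie close together in each panel, alpha per beta is higher in each OP library, and the Hbb-bt share is lower in each OP library.

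The other globin genes gave little signal. Of 12 listed embryonic, minor and non-erythroid globins, 7 had 0 counts in all libraries, among them the embryonic Hbb-y, Hbb-bh1 and Hba-x, and 0 of the 4 tested passed (1 lower at an unadjusted p under 0.05, where 12.2% of all genes tested were, 0 with DESeq2 and 0 with limma-voom). Cygb, cytoglobin of stellate cells, was measured at 8.5, 12.5 and 7.69 CPM in HFCF and at 13, 9.80 and 9.06 CPM in OP, so its groups overlap. Mb, the myoglobin of muscle, had 0, 13 and 4412 counts in HFCF and 0, 17913 and 21 counts in OP, so HFCF replicate 3 and OP replicate 2 stood apart.

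The same pair of libraries stood apart for skeletal muscle genes, a list of 12 that was chosen after the values of Mb were seen. They summed to 599 CPM in HFCF replicate 3 and 1637 CPM in OP replicate 2, and to between 1.0 and 1.95 CPM in the other 4 libraries. These were the HFCF library with the lowest and the OP library with the highest globin level. Without both of them the log2 ratio of summed globins was -3.34 in place of -2.59, all 4 globins were still called lower, and the log2 fold changes of Hba-a1, Hba-a2, Hbb-bs and Hbb-bt were -2.84, -3.04, -3.65 and -4.05.

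Other genes of red cells did not follow the globins as a group. Over 3 lists with 51 genes of the red cell membrane, erythroid regulation and late maturation, 38 were tested, 0 were called higher and 3 lower, where 3.26% and 3.47% of all genes tested were called in these directions. The median log2 fold change was -0.005 with 19 genes on either side of 0, beside 0.02 over all genes tested. Several of these genes are also expressed in liver cells. Of the 51, 7 had 0 counts in all libraries.

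Of 18 genes of the red cell membrane and its spectrin skeleton, 3 had 0 counts in all libraries, among them Epb42, a protein of the membrane skeleton, and Rhag, the Rh-associated glycoprotein. Of the 11 tested, 0 were called (2 higher and 0 lower at an unadjusted p under 0.05, 1 higher and 0 lower with DESeq2, which called 6.9% of all genes tested higher and 6.52% lower), 9 had a log2 fold change above 0, and the median was 0.44. Gypc, glycophorin C, was measured at 2.63, 4.43 and 4.69 CPM in HFCF and at 7.08, 6.65 and 7.08 CPM in OP, a log2 fold change of 0.82 (SE 0.252, edgeR adjusted p = 0.0864). Stom, the membrane protein stomatin, had a log2 fold change of 0.44 (SE 0.171, edgeR adjusted p = 0.156), also with OP higher in each library. Sptb and Ank1, beta spectrin and ankyrin, which muscle expresses too, were highest in OP replicate 2 with 4.89 and 4.53 CPM.

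Among 13 erythroid transcription factors and receptors, Gata1, Gfi1b and Hemgn had 0 counts in all libraries. Of the 10 tested, 1 was called lower and 0 higher, with a median of -0.20. The gene called was Ldb1, a broadly expressed cofactor that links distant enhancers to the globin genes in red cell precursors, at 112, 120 and 89.8 CPM in HFCF and 59.7, 52.1 and 67.1 CPM in OP. It fell by 0.85 on the log2 scale (SE 0.166, edgeR adjusted p = 0.0245). Ldb1 shares 177 exon bases with Pprc1 on the opposite strand, which held 445 to 564 counts in HFCF and 513 to 776 in OP. Klf1, the factor that binds CACCC boxes of globin genes, was measured at 5.45, 5.32 and 3.96 CPM in HFCF and 3.87, 2.53 and 2.96 CPM in OP. Its log2 fold change of -0.65 (SE 0.257) did not pass, with an edgeR adjusted p of 0.157. Tfrc, the transferrin receptor that brings iron into red cell precursors, had a log2 fold change of -0.49 (SE 0.180, edgeR adjusted p = 0.132).

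Late maturation genes were mixed. Of 20 listed, 17 were tested, 2 were called lower and 0 higher, and the median was -0.19. Ranbp10, a tubulin-binding protein known from platelets, was measured at 177, 177 and 153 CPM in HFCF and at 100, 97.1 and 89.7 CPM in OP, and fell by 0.82 (SE 0.134, edgeR adjusted p = 0.0136). Ube2l6, an ISG15-conjugating enzyme, had a log2 fold change of 0.63 (SE 0.166, edgeR adjusted p = 0.0585) and Blvrb, biliverdin reductase B, of 0.49 (SE 0.200, edgeR adjusted p = 0.170), both higher in each OP library. The calls of Ldb1 and Ranbp10 were each lost when HFCF replicate 1, HFCF replicate 2 or OP replicate 1 was left out and with the mitochondrial mRNA share in the model, that of Ldb1 also without OP replicate 2.

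Set against Alas2, the globins were lower still in OP. There were 25.4, 35.9 and 16.5 globin counts per Alas2 count in HFCF and 2.22, 4.91 and 2.75 in OP, or 25.9 ± 9.72 and 3.29 ± 1.43 (SD, n = 3 each). Within HFCF, Alas2 spanned 47.9 to 53.8 CPM while the summed globins spanned 887 to 1719 CPM. Which cells the Alas2 reads came from was not tested, so the quotient cannot be read as globin per red cell. The other enzymes and carriers of heme synthesis were mostly on the side of Alas2, with 11 of 15 tested genes above 0 and a median of 0.27. Of the 15, 1 was called higher and 0 lower. Alad, the enzyme after the aminolevulinate synthases, was measured at 126, 129 and 133 CPM in HFCF and at 243, 223 and 282 CPM in OP and rose by 0.95 (SE 0.140, edgeR adjusted p = 0.0105). Leaving out HFCF replicate 1, HFCF replicate 2 or OP replicate 1 ended that call. Alas1, the aminolevulinate synthase of hepatocytes, was measured at 381, 355 and 606 CPM in HFCF and at 751, 639 and 1092 CPM in OP, a log2 fold change of 0.89 (SE 0.269, edgeR adjusted p = 0.0838). Abcb10, a mitochondrial transporter of heme synthesis, had 0.62 (SE 0.163, edgeR adjusted p = 0.0586) and Ppox, a late enzyme of the pathway, -0.59 (SE 0.163, edgeR adjusted p = 0.0658). Ppox shares 791 exon bases with B4galt3 on the opposite strand, so it is uncertain in the same way as Alas2.

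Genes that clear hemoglobin and heme gave 0 calls among 12 tested (4 higher and 0 lower at an unadjusted p under 0.05, 4 higher and 0 lower with DESeq2, 0 with limma-voom), with 10 above 0 and a median of 0.31. Hmox1, heme oxygenase 1, was measured at 7.88, 8.36 and 6.27 CPM in HFCF and at 12, 11.8 and 11.1 CPM in OP, without overlap. Its log2 fold change was 0.63 (SE 0.169, edgeR adjusted p = 0.0608). Hp, haptoglobin, was measured at 3209, 2990 and 3177 CPM in HFCF and at 4026, 4218 and 4031 CPM in OP, a log2 fold change of 0.39 (SE 0.159, edgeR adjusted p = 0.172). Lrp1, which takes up hemopexin with its heme, had 0.57 (SE 0.186, edgeR adjusted p = 0.102) and Fth1, the ferritin heavy chain, 0.54 (SE 0.186, edgeR adjusted p = 0.114).

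Signals that act on red cell production or its iron supply were given by 8 genes, of which 6 were tested and 0 called (2 higher and 1 lower at an unadjusted p under 0.05, 2 higher with DESeq2, 0 with limma-voom). Epo, erythropoietin, and Erfe, erythroferrone, were at or under 0.142 CPM in each library. Hamp, hepcidin, was measured at 1263, 915 and 1265 CPM in HFCF and at 914, 706 and 836 CPM in OP. Its groups lie next to each other at 915 and 914 CPM, with a log2 fold change of -0.49 (SE 0.187, edgeR adjusted p = 0.150). Its copy Hamp2 was measured at 7.82, 5.72 and 16.0 CPM in HFCF and at 72.3, 20.5 and 24.1 CPM in OP, 1.98 on the log2 scale (SE 0.544, edgeR adjusted p = 0.0658), in the opposite direction to Hamp. Tmprss6, the protease that restrains hepcidin, had 0.49 (SE 0.139, edgeR adjusted p = 0.0715) and Tfr2, transferrin receptor 2, -0.26 (SE 0.127, edgeR adjusted p = 0.237).

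**Figure D3:**
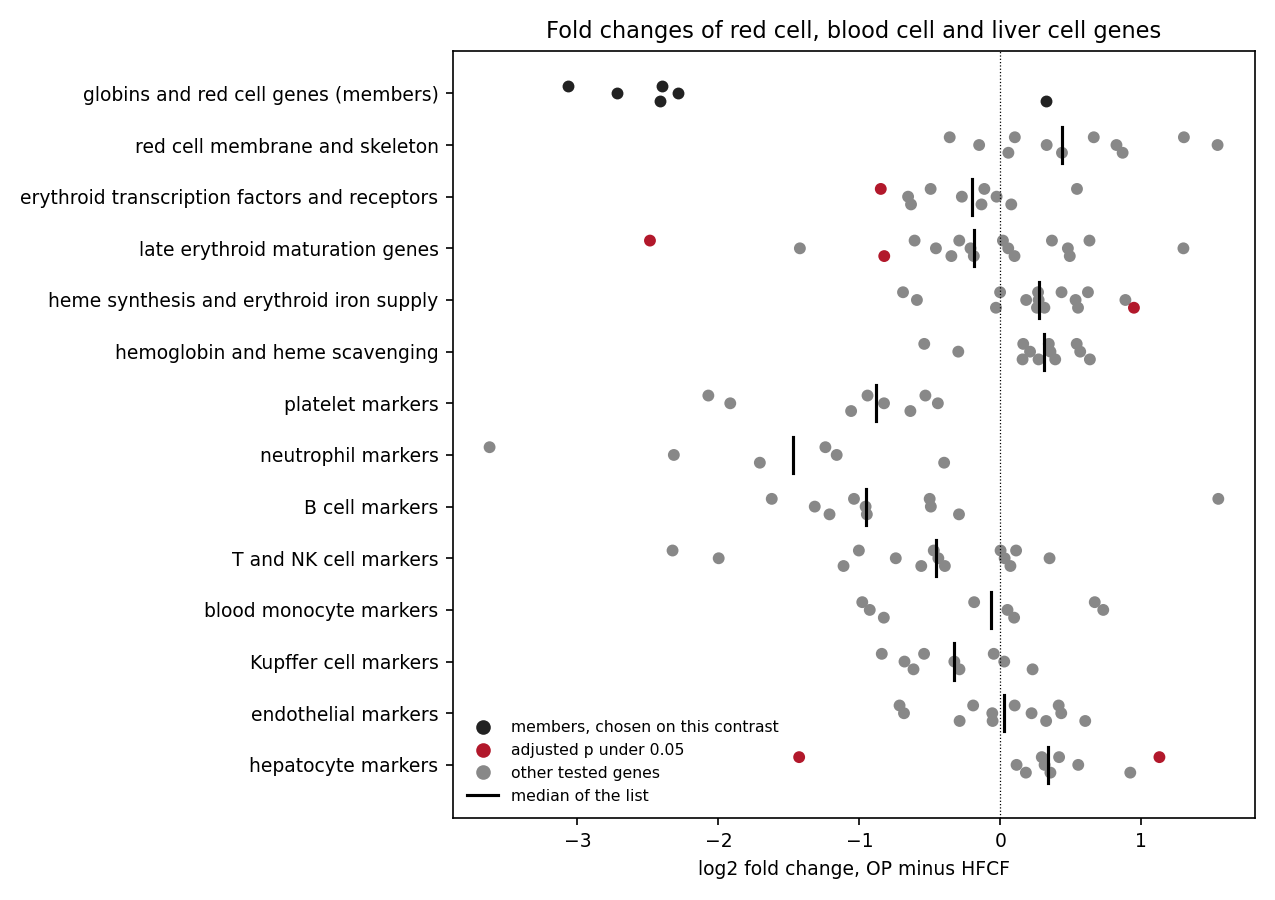
Fitted log2 fold changes (x axis, OP minus HFCF) of the tested genes of each list (rows); red marks an edgeR adjusted p under 0.05, grey the other genes, black the genes chosen on this contrast, and vertical bars the median of each list. The globins lie at -2.29 and below, the red cell and heme lists spread around 0 or above, and all tested platelet and neutrophil markers lie below 0.

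Other blood cells offer a comparison, since blood held in a piece of liver would bring their transcripts too. Over 5 lists of platelet, neutrophil, B cell, T and NK cell and monocyte markers with 59 genes, 46 were tested and 0 were called by edgeR, beside 3 lower and 0 higher with DESeq2 and 1 lower with limma-voom. At an unadjusted p under 0.05 there were 11 lower and 1 higher, where 12.2% and 13% of all genes tested were. Of the 46, 36 had a log2 fold change below 0, against 48.6% of all genes tested, and the median was -0.78. Groups did not overlap in 14 genes with OP lower and in 1 with OP higher, where 15.4% and 15.8% of all genes tested did so.

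All 8 platelet markers tested had a log2 fold change below 0, with a median of -0.88, 4 lower at an unadjusted p under 0.05 and 0 called (1 with DESeq2). Ppbp, pro-platelet basic protein, was measured at 1.76, 1.35 and 0.726 CPM in HFCF and at 0.233, 0.440 and 0.229 CPM in OP, without overlap. Its log2 fold change was -2.07 (SE 0.531, edgeR adjusted p = 0.0552). Gp1ba, part of the von Willebrand factor receptor, had -1.92 (SE 0.724, edgeR adjusted p = 0.145). Pf4, platelet factor 4, overlapped, with 1.35, 1.29 and 0.429 CPM in HFCF and 0.716, 0.739 and 0.791 CPM in OP, and Itgb3, integrin beta 3, had -0.83 (SE 0.331, edgeR adjusted p = 0.165). Itga2b, integrin alpha 2b, was the most abundant of the list, at 8.48, 7.5 and 6.09 CPM in HFCF and at 4.0, 3.62 and 6.58 CPM in OP, with overlap. Its log2 fold change was -0.64 (SE 0.272, edgeR adjusted p = 0.189), and 0.082 with the mitochondrial mRNA share in the model. Tubb1 and Gp6 had counts in 1 library each.

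All 6 neutrophil markers tested were below 0 as well, with a median of -1.47, 2 lower at an unadjusted p under 0.05 and 0 called (1 with DESeq2). The other 9 of the 15 listed were too low to test. Of these, Ngp, Ltf, Elane and Prtn3 had higher means in OP, and Mmp8, Ly6g and Mpo lower ones. Camp was about equal and Stfa2l1 had 0 counts. The highest of these means was 0.274 CPM, for Ngp in OP. S100a9, a calprotectin subunit, was measured at 2.90, 1.37 and 2.49 CPM in HFCF and at 0.300, 0.598 and 1.19 CPM in OP, without overlap, a log2 fold change of -1.71 (SE 0.540, edgeR adjusted p = 0.0933). Its partner S100a8 had -1.24 (SE 0.589, edgeR adjusted p = 0.231). Retnlg, resistin-like gamma, was at 0.829, 0.561 and 0.347 CPM in HFCF and at 0, 0 and 0.146 CPM in OP, the last 3 at or near the floor. Csf3r, the receptor of granulocyte colony-stimulating factor, was the most abundant of the list, at 7.15, 4.20 and 4.49 CPM in HFCF and at 3.90, 2.88 and 5.25 CPM in OP, with overlap. Its log2 fold change was -0.40 (SE 0.308, edgeR adjusted p = 0.467), and 0.34 with the mitochondrial mRNA share in the model.

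Of 10 B cell markers, 9 were below 0 and 0 were called (4 lower at an unadjusted p under 0.05, 1 lower with DESeq2 and 1 with limma-voom). Ighd, the heavy chain of IgD, was measured at 12.2, 10.4 and 6.04 CPM in HFCF and at 1.48, 4.09 and 3.73 CPM in OP, a log2 fold change of -1.62 (SE 0.408, edgeR adjusted p = 0.0522). Fcer2a, the low-affinity IgE receptor, had -1.21 (SE 0.482, edgeR adjusted p = 0.161). The exception was Ighm, the heavy chain of IgM, at 11.1 to 22.1 CPM in HFCF and at 7.96, 117 and 12.9 CPM in OP, where OP replicate 2 stood apart. T and NK cell markers gave 9 of 14 below 0 with a median of -0.46, and monocyte markers 4 of 8 with a median of -0.07, 0 called in either (0 at an unadjusted p under 0.05 for the former, 1 higher and 1 lower for the latter, 0 with DESeq2). Among the latter, Treml4, a receptor of patrolling monocytes, had 0.73 (SE 0.269, edgeR adjusted p = 0.136).

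Summed over their lists, the markers of other blood cells differed less between the groups than the globins did. Platelet markers summed to 17, 16.4 and 11.3 CPM in HFCF and 8.31, 6.86 and 9.85 CPM in OP, a ratio of means of 1.79, without overlap. Neutrophil markers summed to 9.23 to 15.7 CPM in HFCF and 4.78 to 10.1 CPM in OP, a ratio of 1.74 with overlap through OP replicate 3. The full list of B cell markers had a ratio of 0.855, with OP higher in the mean (58.1 CPM in HFCF and 68.0 CPM in OP). Without Ighm, which was left out after its values were seen, the ratio was 1.93. It was 1.31 for T and NK cell markers and 1.11 for monocyte markers, and the groups overlapped in each of these sums. The globins had a ratio of 6.03. A large part of the platelet sum was Itga2b, with 49.4% in HFCF and 56.7% in OP, and of the neutrophil sum Csf3r, with 45.8% and 60.3%. Without these genes, left out after their values were seen, the ratios of the sums were 2.09 and 2.37.

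Globin CPM divided by the summed platelet CPM of the same library was 73.9, 105 and 78.7 in HFCF and 15.9, 50.2 and 16.7 in OP, a ratio of means of 3.11, and the groups do not overlap. Divided by the summed neutrophil CPM it was 80.1, 186 and 91.4 in HFCF and 27.6, 68.6 and 16.2 in OP, a ratio of 3.18 and again without overlap. The second quotient depended on Csf3r: without it the values were 148, 342 and 170 in HFCF and 150, 161 and 33.5 in OP, so that the groups overlap, and the ratio was 1.92. Without Itga2b the platelet quotients were 148, 193 and 171 in HFCF and 30.6, 106 and 50.2 in OP, without overlap and with a ratio of 2.74. Among single markers, the fitted log2 fold change of Ppbp was -2.07, against -2.29 for Hba-a1. The fitted changes of the low Retnlg, Mmp9 and Ncr1, the last from the T and NK cell list, were larger in size than that of Hba-a1. The part of blood held in the pieces in the globin difference was not tested beyond these values: the platelet and neutrophil markers rest on levels of at most 8.48 CPM per gene, and red cell age cannot be told apart from red cell number.

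**Figure D4:**
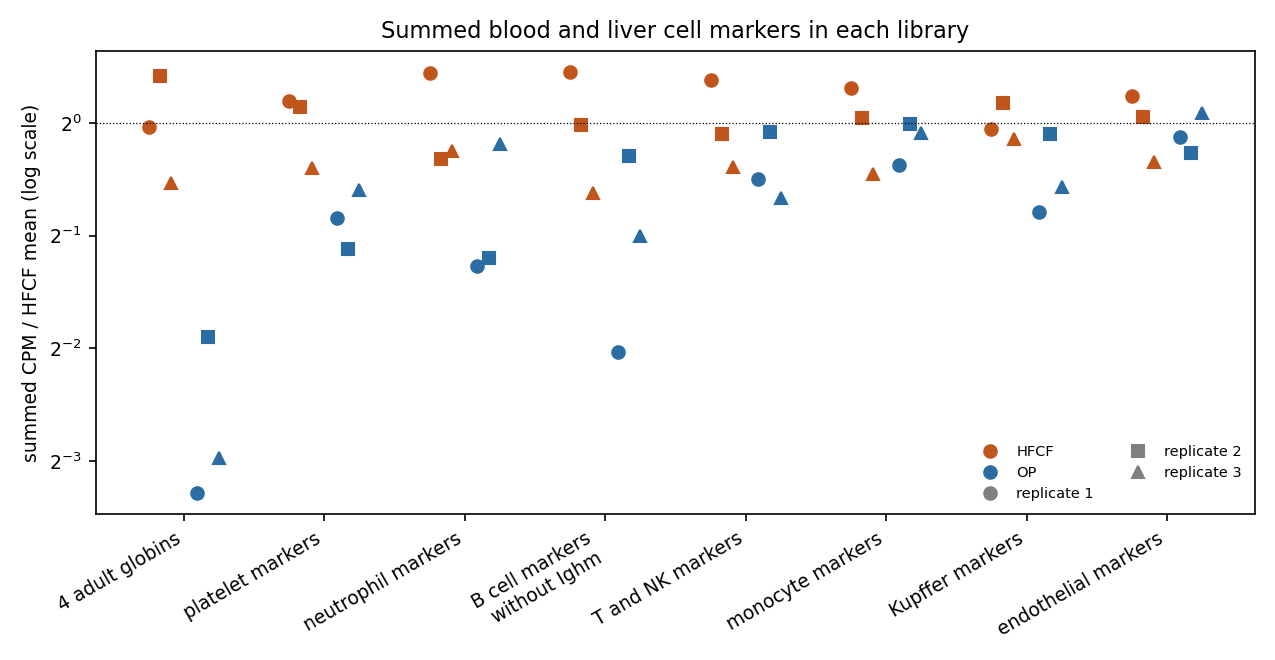
Summed CPM of each marker list in each library, divided by the mean of the 3 HFCF libraries (y axis, log scale; symbols mark the replicate number, orange HFCF and blue OP; dotted line at the HFCF mean). The globins lie lowest in the OP libraries, platelet markers lie lower in OP without overlap, and monocyte, T and NK and endothelial markers overlap. The B cell sum is drawn without Ighm.

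Cells of the liver itself were given by 3 lists. Kupffer cells, the liver macrophages, had markers that summed to 309 to 385 CPM in HFCF and 198 to 318 CPM in OP, with 0 of 9 called (2 lower at an unadjusted p under 0.05, 2 lower with DESeq2) and a median log2 fold change of -0.33. Cd5l, a secreted macrophage protein, was measured at 79.3, 102 and 80.4 CPM in HFCF and at 31.3, 71.5 and 43.4 CPM in OP, -0.84 on the log2 scale (SE 0.282, edgeR adjusted p = 0.107), and Clec4f, a Kupffer cell lectin, had -0.62 (SE 0.220, edgeR adjusted p = 0.125). Globin CPM per summed Kupffer CPM was 3.81, 4.46 and 2.87 in HFCF and 0.668, 1.08 and 0.713 in OP, without overlap. Endothelial markers summed to 177 to 264 CPM in HFCF and 187 to 237 CPM in OP, with 0 of 12 called (0 at an unadjusted p under 0.05, 0 with DESeq2) and a median of 0.02. Hepatocyte markers, the defining genes of the labelled tissue, summed to 39744, 38964 and 62353 CPM in HFCF and to 86758, 80170 and 56537 CPM in OP, a ratio of means of 1.58 with OP higher and with overlap through HFCF replicate 3 and OP replicate 3. A large part of this sum was Alb, albumin, with a mean of 21698 of 47020 CPM in HFCF and 41087 of 74489 CPM in OP. Of the 10 hepatocyte markers, 9 had a log2 fold change above 0, with a median of 0.33. The 1 called higher was Ttr, transthyretin, at 2914, 2742 and 3803 CPM in HFCF and 7696, 6496 and 6480 CPM in OP. The 1 called lower was Cps1, a urea cycle enzyme, at 1916, 1919 and 1602 CPM in HFCF and 936, 683 and 403 CPM in OP.

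By a rule on likeness to the summed globins, Pearson's r of log2(CPM + 0.5) over the 6 libraries among 11967 genes with a mean of at least 1 CPM, the closest were Sesn1, Cib3, Mastl, Fchsd2, Fndc3b, Cryzl1, Avl9, Pms2, Slc18b1 and Epb41l5, with r between 0.986 and 0.994. The closest of these in size was Cib3, a calcium-binding protein, at 23.6, 39.7 and 14.1 CPM in HFCF and 1.97, 4.83 and 2.85 CPM in OP, which fell by 3.00 (SE 0.444, edgeR adjusted p = 0.0105). This call ended when HFCF replicate 1, HFCF replicate 2 or OP replicate 1 was left out and with the mitochondrial mRNA share in the model. Sesn1, a stress-induced sestrin, was measured at 13.2, 14.8 and 11.5 CPM in HFCF and 7.20, 8.74 and 7.54 CPM in OP. In all, 503 of these genes had an r above 0.9, so a high r is common over 6 libraries that form 2 groups.

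After group means were removed, the 10 closest had r between 0.988 and 0.996 and 0 of them were called; Mup20, Laptm5, Sos1, Dcps, Selenoh, Rab11fip5, Adam10, Blk and Ifi208 were among them. Mup20, a major urinary protein, followed the order of the libraries at 6102, 6657 and 5285 CPM in HFCF and 3391, 4943 and 3753 CPM in OP. Blk, a kinase of B cells, was at 1.53, 2.39 and 1.14 CPM in HFCF and 0.433, 1.73 and 0.770 CPM in OP, highest in the same library of each group as the globins. None of the listed red cell, heme or blood cell genes (0 of either 10) were among the closest, a description over 6 libraries that share depth and handling within the series.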

How the data were processed

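Poly(A) RNA of 6 mouse liver samples was sequenced with paired-end reads of 150 bases from libraries with dUTP in the second strand, per the labels' protocols. The authors deposited whole-number counts per gene, not normalized. Cutadapt 1.9, FastQC and the build GRCm39 are named in the submitters' processing notes; neither the aligner nor the counter, nor whether it used strand, is stated in the sources used here. Totals were 46459980 to 61918541 counts per library. In each library a count of 4 was more frequent than 3 or 5, so a read pair may have been counted more than 1 time, which would overstate the depth and make floors and intervals too narrow.

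Symbols were matched to 55141 of 55401 identifiers. OP was compared with HFCF, grouped by the samples' titles. Genes were filtered by filterByExpr (17394 of 27893 with any count), scaled by TMM and tested two-sided by the quasi-likelihood functions of edgeR 4.0.16 under R 4.3.3 (glmQLFit, then glmQLFTest). P-values were adjusted after Benjamini and Hochberg over the whole set, with 0.05 as the limit. An SE is the quotient of the log2 fold change and the square root of the F statistic. The members, lists and tests were chosen with earlier results of these data known. Named were the members, in each list genes among the 3 with the smallest p and the 2 most abundant, and the 10 genes most like the summed globins over all libraries and after removal of group means; genes given by level alone, the skeletal muscle list and the sum without Ighm were chosen after their values were seen. Some genes selected by this rule are not reported here, although they count in the totals of their lists. Hjv and Tf were matched as Hfe2 and Trf.

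Tried on simulated data of 17394 genes for the comparison of OP and HFCF, the test found 71 of 100 genes set to a 4-fold change, 12 of 100 set to a 2-fold change and, wrongly, 8 of 17194 left as they were. Sequences came from RefSeq promoters (GRCm38.p6) and GENCODE M21 transcripts (GRCm38), another build than the submitters', and were matched by symbol. Alternatives were DESeq2 1.42.0, other scalings, other filters, the replicate number as a block, robust dispersions, limma-voom (limma 3.58.1), counts divided by 4, mitochondrial genes left out, the mitochondrial mRNA share as a covariate and leaving out each library. Leaving out both libraries with skeletal muscle genes, and marker sums without their most abundant gene, were added after seeing the data. Figures were drawn with matplotlib 3.10.9.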

Additional observations from a re-analysis of the deposited data

How the results depend on the processing

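Of the single genes with a fold change in the report, Itga2b (0.082) and Csf3r (0.34) changed direction with the mitochondrial covariate, and no other did under any alternative run. Of the 6 members found, 5 were lower in OP under each alternative with all 6 tested, and 4 where Slc4a1 was not tested (a filter of 1 CPM, counts divided by 4). The log2 ratio of summed globins stayed between -2.63 and -2.58 over the scalings. It was -2.34 for alpha and -2.83 for beta globins alone, -3.12 to -2.34 with each library left out in turn, and -3.34 without both libraries with skeletal muscle genes.

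The 1170 genes called became 2337 with DESeq2, 698 without a low-count filter, 207 with the mitochondrial covariate, 546 without both muscle-rich libraries and 88 to 1310 with each library left out. The 3 listed red cell genes called became 6 with DESeq2, 0 with the covariate and 0 to 5 with each library left out. The 0 blood cell markers called became 3 with DESeq2, 1 with total counts, 1 with a filter of 1 CPM, 2 with robust dispersions, 1 with limma-voom, 2 with counts divided by 4 and 0 to 3 with each library left out. The cause was not tested. Same-numbered libraries did not deviate together (correlations of 0.0229, -0.126 and -0.164), so the numbers were not taken as pairs; with the replicate number as a block 180 genes and 0 listed red cell genes were called, and 4 members were still called lower. The block left Alad (edgeR adjusted p = 0.0735), Ldb1 and Ranbp10 without a call. Ranked by Spearman's rho, 54 genes tied at 1, 5 of the 10 most like the globins among them. Depth limits Slc4a1 and most neutrophil and platelet markers, which lie within a few times the floor of 3 counts.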
